A study of Mus musculus with 8 samples.

Results

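Nectins, junctional adhesion molecules (JAMs) and the A33 antigen belong to the immunoglobulin superfamily and sit in the cell membrane, where their outer domains bind partners on neighbouring cells. Messenger RNA of 10 such genes, of 23284 genes in the files, was followed in mouse preSC cells in which Max had been targeted. The 10 genes were Pvrl1 to Pvrl4 (the older symbols of nectin-1 to nectin-4), Pvr (the poliovirus receptor homologue), F11r (JAM-A), Jam2 (JAM-B), Jam3 (JAM-C), Cxadr (the coxsackievirus and adenovirus receptor) and Gpa33 (the A33 antigen). They were selected on a list of contact proteins that was drawn up with the differences between Max KO and control libraries already known, so the differences between the groups are given here as a description and not as a test. Both groups were preSC cells, a culture model of precancerous neuroendocrine lung cells, from mice of mixed 129/SvJ and C57BL/6 background with a Chga-GFP reporter and conditional (lox) alleles of Rb, p53 and p130. The Max KO group consisted of 4 libraries from cells transduced with a guide RNA against Max, and the control group of 4 libraries from cells transduced with a control guide. The cells were selected with puromycin and expanded as polyclonal populations, so edited and unedited cells can be mixed in them. The labels do not say that libraries of one group had cultures of their own. The p-values below therefore reflect only how much these libraries varied, and that variation may be technical.

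Nectins join cells without calcium, by binding a like molecule or another nectin. Nectin-3 pairs with nectin-1 and nectin-2, and nectin-4 pairs with nectin-1. Their tails bind afadin, which ties them to actin at adherens junctions. The poliovirus receptor, also called nectin-like 5, binds nectin-3 and is recognised by the receptors TIGIT, CD226 and CD96 of lymphocytes. JAM-A binds itself at tight junctions, whereas JAM-B and JAM-C bind each other. CXADR is a tight junction protein of similar build that some viruses use for entry, and the A33 antigen is best known from the intestinal epithelium.

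The libraries held 14952291 to 19480947 reads in genes in the Max KO group and 13711278 to 19804949 in the controls. Levels are given as CPM, a gene's count scaled to the size of its library. A count of 0 allows up to 3 counts, or 0.151 to 0.219 CPM depending on the library (counting error only). Reads outside exons made up 20.5% to 21.5% in the Max KO libraries, 18.5% and 18.6% in controls 1 and 2, and 23.3% and 23.4% in controls 3 and 4. Max itself was at 42.3, 42.3, 59.1 and 68.0 CPM in Max KO libraries 1 to 4, against 65.5, 70.2, 75.2 and 61.9 CPM in controls 1 to 4, and did not pass the threshold of 0.05 (log2 difference -0.37, SE 0.15; edgeR adjusted p = 0.0955). An edited gene can still be transcribed, which makes the Max level a weak check of the labels. All 10 neuroendocrine markers were detected and tested, of which 1 rose, 1 fell and 8 missed the threshold. Of all 13358 tested genes, 10.9% were called higher and 12.2% lower, so calls among a few markers are common. Chga averaged 442 CPM in Max KO and 457 CPM in control libraries. Chgb fell to 191 CPM in Max KO libraries, against 247 CPM in controls (edgeR adjusted p = 0.00183), and Uchl1 rose narrowly to 748 CPM in Max KO libraries, against 564 CPM in controls (edgeR adjusted p = 0.0496). Calca split the controls, at 525, 556, 589 and 524 CPM in Max KO libraries 1 to 4 and 1980, 1783, 399 and 467 CPM in controls 1 to 4. Endothelial cells also carry JAMs, but their markers Emcn and Sox17 had no count, and Cdh5 averaged 0.0674 CPM in Max KO and 0.0840 CPM in control libraries. The blood cell marker Ptprc averaged 0.0160 CPM in Max KO and 0.0301 CPM in control libraries. The blood cell list as a whole summed to 73.4 to 81.8 CPM in Max KO and 76.5 to 87.9 CPM in control libraries. Most of that was Coro1a, at 74.9 CPM in Max KO and 76.7 CPM in control libraries. Cd68 averaged 3.22 CPM in Max KO and 4.24 CPM in control libraries, and neither gene passed the threshold. Of the 9 intestinal markers in the files, Cdx1 and Tff3 had no count, and the sum of the list was 19.5 to 20.6 CPM in Max KO and 15.4 to 23.5 CPM in control libraries, mostly Vil1. The fibroblast markers summed to 49.5 to 65.9 CPM in Max KO and 25.3 to 45.3 CPM in control libraries, nearly all of it Dcn, which rose, while Lum had no count. Other fibroblast markers went the other way: Pdgfra fell to 0.260 CPM in Max KO libraries, against 1.35 CPM in controls, and Thy1 averaged 0.0300 CPM in Max KO and 0.601 CPM in control libraries. The endothelial list summed to 7.91 to 8.49 CPM in Max KO and 6.59 to 7.47 CPM in control libraries, ranges that do not overlap. Most of that was Erg, which rose (log2 0.43, SE 0.13, edgeR adjusted p = 0.0353), with groups that did not overlap. Pecam1 averaged 0.618 CPM in Max KO and 0.805 CPM in control libraries and missed the threshold. Markers of other lung epithelium summed to 13.2 to 14.5 CPM in Max KO and 9.52 to 13.8 CPM in control libraries, ranges that overlap, with Krt5 at 0. Of its 4 tested members Hopx rose and 3 missed the threshold. The part of such cells in the results below was not tested.

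Start-site sequence was available from RefSeq (GRCm38.p6) for 5 of the 10 genes. It is shown for the 4 genes that were higher in the Max KO cells, because MAX binds DNA and because these windows differed in a feature that the choice of the genes did not use, the number of CpG sites. Each run gives the 250 bases before the start, 5′ to 3′ on the gene's strand, with CpG in capitals. Pvrl4 lies at chr1:171369923-171370172 on the plus strand, Gpa33 at chr1:166129971-166130220 on the plus strand, F11r at chr1:171437311-171437560 on the plus strand and Pvrl2 at chr7:19749574-19749823 on the minus strand.
Pvrl4: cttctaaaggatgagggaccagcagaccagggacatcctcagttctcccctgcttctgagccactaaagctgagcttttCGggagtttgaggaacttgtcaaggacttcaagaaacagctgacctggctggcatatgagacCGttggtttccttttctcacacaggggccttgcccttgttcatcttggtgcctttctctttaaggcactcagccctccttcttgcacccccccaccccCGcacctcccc
Gpa33: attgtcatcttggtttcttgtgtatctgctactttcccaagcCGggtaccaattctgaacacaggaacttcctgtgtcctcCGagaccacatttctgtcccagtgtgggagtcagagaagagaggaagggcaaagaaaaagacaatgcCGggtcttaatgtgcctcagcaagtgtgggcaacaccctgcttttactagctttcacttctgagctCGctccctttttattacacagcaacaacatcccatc
F11r: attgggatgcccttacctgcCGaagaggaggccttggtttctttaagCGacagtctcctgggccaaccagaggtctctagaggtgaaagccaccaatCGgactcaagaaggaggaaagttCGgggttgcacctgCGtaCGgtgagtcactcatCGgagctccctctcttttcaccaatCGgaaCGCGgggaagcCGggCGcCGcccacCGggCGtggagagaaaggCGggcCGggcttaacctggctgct
Pvrl2: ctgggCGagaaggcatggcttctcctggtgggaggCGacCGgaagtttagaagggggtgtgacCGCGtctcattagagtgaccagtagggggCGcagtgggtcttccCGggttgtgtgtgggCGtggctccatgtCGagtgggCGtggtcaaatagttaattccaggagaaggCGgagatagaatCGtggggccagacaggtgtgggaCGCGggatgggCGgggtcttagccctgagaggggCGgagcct

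Pvrl4 had 3 CpG sites and Gpa33 had 4, where the median of all 32851 windows was 6. As few were held by 37.8% and 44.4% of all windows, so these low numbers are common. F11r had 17 and Pvrl2 had 16, and 23.5% and 25.4% of all windows held as many. The window of Pvrl3, which was lower in the Max KO cells, had 30, and 5.94% of windows held as many. The 2 genes with the largest differences thus had the fewest CpG sites of the 5 windows, but nothing is read from so few windows. The E-box CACGTG, the site best known for MYC-MAX pairs, was in none of the 5 windows on either strand. It was in 6.02% of all windows, so that none in 5 says little, and a factor may bind elsewhere. The letters TTCCCGC of E2F-type sites (in 3.82% of all windows) and AACCNGTT of grainyhead-type sites (1.79%), searched on both strands, were not found in the 5 windows either.

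Among the 4 nectins, nectin-4 differed most. Pvrl4 stood at 11.8, 11.5, 10.03 and 9.83 CPM in Max KO libraries 1 to 4, against 1.66, 2.65, 3.15 and 2.97 CPM in controls 1 to 4. All Max KO libraries lay above all controls, and the mean was 10.8 ± 1.02 CPM in Max KO and 2.61 ± 0.664 CPM in control libraries (SD, n = 4 each). The difference was 4.18-fold (log2 2.06, SE 0.19), which rested on 702 reads in the Max KO and 173 reads in the control group. It was 2.35 on the log2 scale against controls 1 and 2 alone and 1.81 against controls 3 and 4 alone.

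Pvrl2, which encodes nectin-2, was at 54.0, 52.6, 58.9 and 63.7 CPM in Max KO libraries 1 to 4 and at 37.5, 38.2, 34.1 and 40.1 CPM in controls 1 to 4. The groups did not overlap, and the difference was 1.53-fold (log2 0.61, SE 0.09). Pvrl3, which encodes nectin-3, went the other way. It was at 16.1, 16.4, 16.9 and 15.95 CPM in Max KO libraries 1 to 4 and at 30.9, 30.0, 28.0 and 29.6 CPM in controls 1 to 4. Relative to its mean, its spread was the smallest of the 4 nectins in both groups, and its log2 difference was -0.86 (SE 0.08). The gene of nectin-3 was therefore lower while those of 2 of its relatives, nectin-2 and nectin-4, were higher.

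Pvrl1 encodes nectin-1, the partner of both nectin-3 and nectin-4. It stood at 46.3, 44.1, 43.6 and 49.5 CPM in Max KO libraries 1 to 4, against 38.6, 38.2, 43.3 and 39.6 CPM in controls 1 to 4. The lowest Max KO library, at 43.6 CPM, lay just above the highest control, at 43.3 CPM. The log2 difference was 0.20 (SE 0.08). Pvr was all but undetected, with 2 reads in Max KO library 4 and none in the other 7 libraries, so no difference could be seen at this depth.

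F11r, which encodes JAM-A, was the most abundant of the 10 genes. It was at 244, 242, 245 and 249 CPM in Max KO libraries 1 to 4 and at 124, 124, 105 and 140 CPM in controls 1 to 4. The Max KO libraries lay close together, with a coefficient of variation of 1.21%, against 11.5% among controls, and the difference was 1.99-fold (log2 0.99, SE 0.08). Jam3, which encodes JAM-C, was at 12.5, 13.9, 15.3 and 15.2 CPM in Max KO libraries 1 to 4 and at 25.1, 22.9, 32.6 and 24.0 CPM in controls 1 to 4. The groups did not overlap, with a log2 difference of -0.88 (SE 0.12), or -0.76 without control 3, the highest. In GENCODE's annotation of GRCm38, 36.2% of the exon bases of Jam3 overlap an antisense gene, and the strand setting of the counting is not given, so reads of both genes may be mixed in its count.

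Jam2, whose product JAM-B is the partner of JAM-C, had 1, 7, 5 and 3 reads in Max KO libraries 1 to 4 and 3, 4, 15 and 3 reads in controls 1 to 4. It was below the filter on low counts, as was Pvr. Cxadr hardly differed, at 61.6, 62.8, 62.3 and 62.1 CPM in Max KO libraries 1 to 4 and 64.4, 65.7, 62.9 and 54.8 CPM in controls 1 to 4. All Max KO libraries fell within the range of the controls, and the log2 difference was 0.01 (SE 0.08). It turned slightly negative, to -0.07, against controls 1 and 2 alone. In the GENCODE annotation 9.46% of the exon bases of Cxadr overlap other genes, as do 3.86% of those of Pvrl2.

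Gpa33 had the second-largest difference. It was at 52.0, 52.7, 51.6 and 57.2 CPM in Max KO libraries 1 to 4 and at 16.7, 18.2, 13.8 and 21.8 CPM in controls 1 to 4. The lowest Max KO library lay above the highest control, and the difference was 3.02-fold (log2 1.59, SE 0.12). Unlike that of Pvrl4, the Gpa33 mean was nearly equal in the pairs of controls, at 17.4 CPM in controls 1 and 2 and 17.8 CPM in controls 3 and 4. Controls 3 and 4 were nevertheless its lowest and highest controls, at 13.8 and 21.8 CPM.

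**Figure D1:**
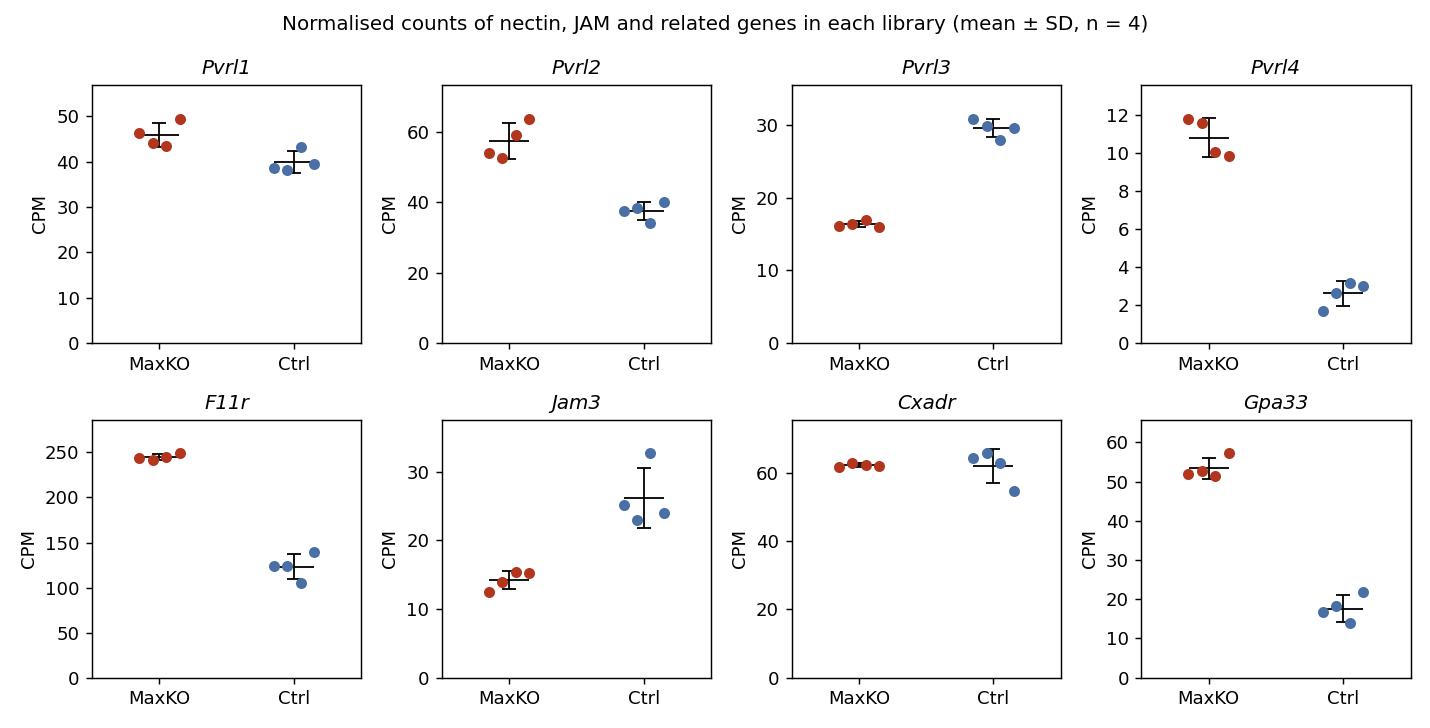
CPM in each library for the 8 genes that passed the filter on low counts, with 4 Max KO libraries (red) and 4 controls (blue); the black marks are the mean ± SD, and each axis starts at 0. Pvrl1, Pvrl2, Pvrl4, F11r and Gpa33 lie higher and Pvrl3 and Jam3 lower in every Max KO library than in any control, while Cxadr overlaps. The gap is narrow for Pvrl1.

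The filter on low counts kept 8 of the 10 genes and left out Pvr and Jam2. Of the 8, 4 were higher (Pvrl2, Pvrl4, F11r and Gpa33) and 2 lower (Pvrl3 and Jam3) by the rule used for all genes, an adjusted p under 0.05 in edgeR's test. Over all 13358 tested genes, 23.1% passed that rule in either direction, 10.9% higher and 12.2% lower. The groups did not overlap for 7 of the 8, Cxadr being the exception, against 26.4% of all tested genes. Because the genes were chosen with this contrast known, nothing is read from these counts. The median log2 difference of all tested genes was -0.0036.

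**Figure D2:**
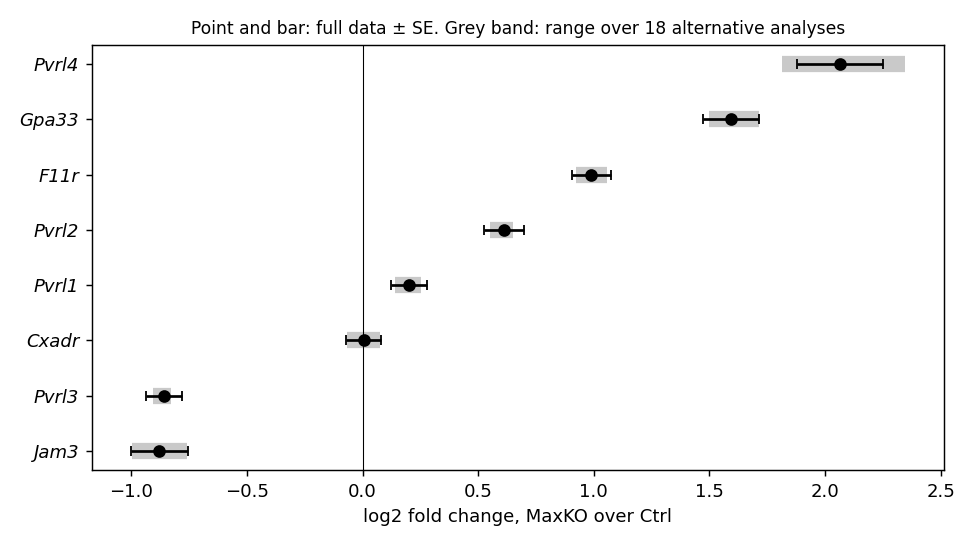
Log2 fold change, Max KO over control, of the 8 genes; the points and thin bars are the full data ± SE, and the grey bands span the values from 18 alternative analyses. Differences run from 2.06 for Pvrl4 to -0.88 for Jam3, and only the band of Cxadr crosses 0.

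Levels of different genes can be compared once they are divided by exon length, for which GENCODE's union of exons on GRCm38 was used, since the annotation behind the counts is not given in the sources used here. In the Max KO cells the order was F11r (92.0 ± 1.11 CPM per kb), Gpa33 (19.5 ± 0.952), Pvrl2 (16.4 ± 1.46), Cxadr (8.40 ± 0.0702), Pvrl1 (8.11 ± 0.477), Jam3 (4.45 ± 0.414), Pvrl4 (2.88 ± 0.271) and Pvrl3 (1.28 ± 0.0314; SD, n = 4). Only Cxadr and Pvrl1 overlapped among neighbours in that order. In the controls the order was F11r (46.3 ± 5.30 CPM per kb), Pvrl2 (10.7 ± 0.716), Cxadr (8.37 ± 0.665), Jam3 (8.18 ± 1.38), Pvrl1 (7.06 ± 0.415), Gpa33 (6.43 ± 1.21), Pvrl3 (2.32 ± 0.0962) and Pvrl4 (0.696 ± 0.177; SD, n = 4). There the 4 genes from Cxadr to Gpa33 each overlapped the next. Gpa33 thus stood second in the Max KO cells and sixth in the controls, and Pvrl3 and Pvrl4 changed places at the low end. The order depends in part on the length used. With the longest transcript as length, Gpa33 (21.2 CPM per kb) and Pvrl2 (20.95) were nearly level in the Max KO cells, in the same places. In the controls 8 of the 10 genes kept their place, as Jam3 (13.5) moved above Cxadr (10.8) and close to Pvrl2 (13.7). Even at its higher level, Pvrl4 remained far below Pvrl2 and Pvrl1 per length. JAM-A was by far the leading transcript in both groups.

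**Figure D3:**
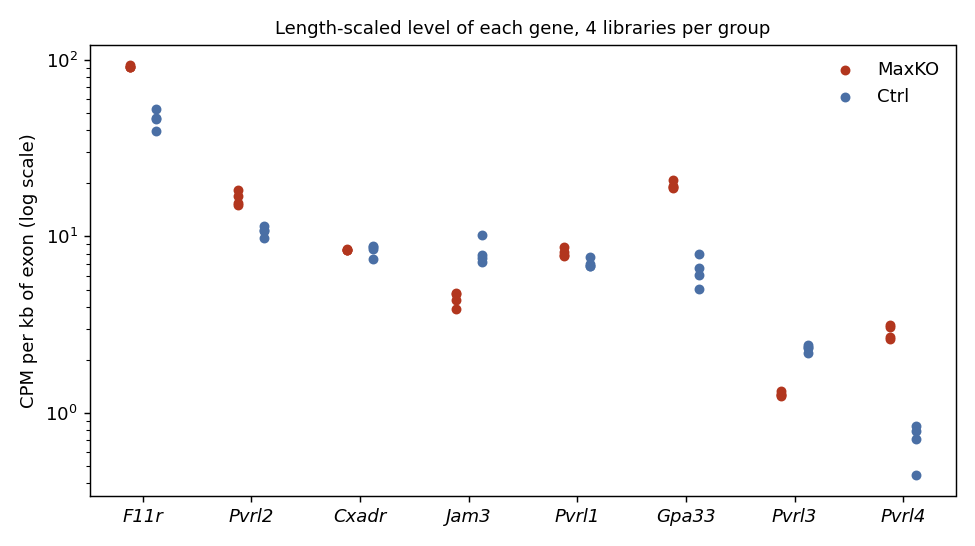
CPM per kb of exon on a log scale for each gene, 4 Max KO libraries in red and 4 controls in blue, with genes ordered by their mean in the controls. F11r is highest in both groups, and Gpa33 and Pvrl4 show the widest gaps between the groups.

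Several of the genes share a chromosome. In the GRCm38 annotation Pvrl4, F11r and Gpa33 lie on chromosome 1, Pvrl2 and Pvr on 7, Pvrl1 and Jam3 on 9, and Pvrl3, Jam2 and Cxadr on 16. Between Pvrl4 and F11r lie 3 protein-coding genes, Arhgap30, Usf1 and Tstd1, which were singled out after their values were seen. Usf1, which encodes an E-box-binding transcription factor, averaged 93.5 ± 7.66 CPM in Max KO and 81.8 ± 5.74 CPM in control libraries (SD, n = 4 each) and did not pass the threshold (log2 0.19, SE 0.08, edgeR adjusted p = 0.112). Tstd1 did not pass it either (log2 0.42, SE 0.31, edgeR adjusted p = 0.365), and Arhgap30 was at 0.198 CPM in Max KO and 0.155 CPM in control libraries, under the filter. Of the 20 nearest protein-coding genes on either side of the 10 members, 18 were in the files and 12 were tested. Of these 12, 1 was higher and none lower, where 10.9% of all tested genes were higher and 12.2% lower. The 1 that was higher was Mrpl39, a mitochondrial ribosomal protein gene next to Jam2 (log2 0.37, SE 0.07, edgeR adjusted p = 0.00414). On the outer sides, Alyref2, next to F11r, just missed the threshold (log2 0.37, SE 0.13, edgeR adjusted p = 0.0536), and Klhdc9, next to Pvrl4, had a log2 difference of 0.24 (SE 0.11, edgeR adjusted p = 0.138). All 4 tested genes beside or between Pvrl4 and F11r were thus slightly higher without passing, which does not show that they were equal in the groups.

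Over the 8 libraries, the genes whose log2 CPM followed Pvrl4 most closely among 12115 genes were Cnksr1, Pcsk6 and Echs1 (Pearson r of 0.994, 0.993 and 0.992). For Gpa33 the closest gene of all was F11r, another of the 10 (r = 0.998), followed by Tdrd7 (0.997) and Ccdc64b (0.995). Such values are largely set by the difference between the groups. On deviations from the group means, which leave that difference out, Gpa33 and F11r still had r = 0.960, and both were lowest in control 3 and highest in control 4 among the controls. The closest genes on deviations were Phf19, Otud7a and Sike1 for Gpa33 (0.988, 0.985 and 0.977) and Meaf6, Scml2 and Dync1i1 for Pvrl4 (0.976, 0.974 and 0.964). With 8 libraries and 12115 genes some values near 1 arise in any case, and the libraries share depth and preparation.

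The wider pathway was described by 6 lists of genes drawn up beside the 10, with 96 different genes in the files, of which 72 were tested, 20 rose and 14 fell. Over all tested genes 10.9% were called higher and 12.2% lower. The lists were chosen with earlier results known, so their counts are a description and are not set against those shares. The scaffolds that bind the tails of nectins, JAMs or their polarity partners changed in both directions. Of the 25 scaffold genes tested, 8 rose and 3 fell, while 14 missed the threshold. Their median log2 difference was 0.11, where that of all genes was near 0. Crb3, which encodes an apical polarity protein, rose most, with 36.2, 33.8, 31.6 and 31.5 CPM in Max KO libraries 1 to 4 and 15.3, 17.4, 14.6 and 19.1 CPM in controls 1 to 4 (log2 1.00, SE 0.10, edgeR adjusted p = 7.1e-05). Every Max KO library was above every control. Tjp3, which encodes the tight junction scaffold ZO-3, rose to 74.3 ± 5.66 CPM in Max KO libraries, against 46.3 ± 6.48 CPM in controls (SD, n = 4 each; log2 0.68, SE 0.10). Inadl, which encodes the polarity scaffold PATJ, rose as well (log2 0.65, SE 0.09), as did Pick1, a gene of a scaffold with a PDZ domain (log2 0.37, SE 0.06).

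Mllt4, which encodes afadin, averaged 349 ± 25.1 CPM in Max KO and 289 ± 27.9 CPM in control libraries (SD, n = 4 each). It passed the threshold narrowly (log2 0.28, SE 0.09, edgeR adjusted p = 0.0417) and lost the call in 9 of 18 alternatives, with an adjusted p of up to 0.270. Pard3, a polarity gene whose product binds nectins and JAM-A, was also higher (log2 0.30, SE 0.08, edgeR adjusted p = 0.0238) and lost the call in 7. Tjp1, which encodes ZO-1, did not pass (log2 0.03, SE 0.13, edgeR adjusted p = 0.899), and its sign turned with upper-quartile scaling. The 3 falls were Mpdz, Magi1 (log2 -1.33) and Pard6a (log2 -0.30), named after their values were seen. The groups overlapped for Pard6a, and its call was lost in 7 of 18 alternatives. Mpdz was at 15.7 CPM in control 3, where no other library exceeded 1.804 CPM. Its log2 difference was -3.22 with that control and -1.42 without it, and it passed the threshold both ways. The call was lost in 8 other alternatives, among them leaving out any 1 Max KO library or control 2, with an adjusted p of up to 0.139. Without Max KO library 2 or control 2, 5 scaffolds rose in place of 8. Without Max KO library 1, 2 or 3 or control 2, 1 fell in place of 3.

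Nectin-like proteins and the lymphocyte receptors of PVR were the next list, with 4 of 8 genes tested. Of these, 2 fell, none rose and 2 did not pass, with a median of -0.28. Cadm2, which encodes nectin-like 3, fell to 17.1 ± 1.57 CPM in Max KO libraries, against 36.0 ± 5.29 CPM in controls (SD, n = 4 each; log2 -1.08, SE 0.12, edgeR adjusted p = 9.44e-05). Cadm1, which encodes nectin-like 2, fell slightly (log2 -0.31, SE 0.08, edgeR adjusted p = 0.0189), a call that ended without Max KO library 2 or 4, so that 1 gene fell. The receptor genes Cd96, Cd226 and Crtam were at or near 0. Tigit, an inhibitory receptor gene of lymphocytes, was at 1.46, 1.66, 1.69 and 1.40 CPM in Max KO libraries 1 to 4, against 0.302, 0.301, 1.02 and 1.51 CPM in controls 1 to 4, with groups that overlapped (edgeR adjusted p = 0.125). It passed the threshold without control 4, which made 1 rise in this list.

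In the list of related genes of the CTX and JAM type, 5 of 13 were tested. Mpzl1, which encodes a cell surface receptor related to myelin protein zero, rose to 304 ± 17.0 CPM in Max KO libraries, against 157 ± 29.5 CPM in controls (SD, n = 4 each; log2 0.95, SE 0.12, edgeR adjusted p = 0.000216). The other 4 did not pass, and the median was 0.21. Among them Igsf5, named after its value was seen, missed the threshold narrowly (log2 -1.04, SE 0.35, edgeR adjusted p = 0.0503). Its groups did not overlap, at 0.567 CPM in Max KO and 1.20 CPM in control libraries. In this list 2 rose in 3 of 18 alternatives, among them DESeq2 and leaving out control 4. A fall of 1 gene was seen in 6 of 18, among them RLE scaling and leaving out Max KO library 1. Of 23 other immunoglobulin adhesion genes tested, 7 rose, 5 fell and 11 did not pass, with a median of 0.01. The 4 with the smallest p were Kirrel, of the nephrin family (log2 -1.45, SE 0.13), Cntn2, a contactin of axons (log2 -2.22, SE 0.25), Igsf8, a partner of tetraspanins (log2 0.55, SE 0.06), and Mcam, the CD146 antigen (log2 -1.44, SE 0.17). None of the 3 tested genes of proteases that shed such proteins passed in edgeR's test, nor at an unadjusted p under 0.05. These were Adam10, Adam17 and Bace1, with log2 differences of -0.07, 0.04 and -0.02.

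Transcription factors of epithelial and mesenchymal states, among them factors tied to Gpa33 or to epithelial contacts, made up the last list. Of 12 tested, 4 rose, 4 fell and 4 did not pass, where 23.1% of all tested genes were called. The groups did not overlap for 8, against 26.4% of all tested genes, and with the list chosen as it was nothing is read from this. The risers were epithelial factors. Elf3, an ETS factor gene, was at 50.6, 47.6, 49.1 and 53.0 CPM in Max KO libraries 1 to 4 and at 27.8, 26.3, 28.5 and 26.5 CPM in controls 1 to 4 (log2 0.88, SE 0.07, edgeR adjusted p = 2.63e-05). Ovol1, a zinc finger factor gene, rose as well (log2 0.95, SE 0.11), and so did the grainyhead factor gene Grhl2 (log2 0.89, SE 0.14). Ehf, an ETS factor gene named after its value was seen, rose by a log2 of 0.99 (SE 0.24), or 0.59 against controls 1 and 2 alone and 1.57 against controls 3 and 4 alone.

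The falls were led by Zeb1, which encodes a repressor of epithelial genes. It was at 19.2, 22.7, 27.9 and 28.1 CPM in Max KO libraries 1 to 4 and at 53.9, 57.6, 55.0 and 50.3 CPM in controls 1 to 4 (log2 -1.15, SE 0.12, edgeR adjusted p = 7.27e-05). No library of one group entered the range of the other. Snai2 and Zeb2, which encode repressors of the same kind, fell too (log2 -1.09, SE 0.20, and -0.68, SE 0.17). Klf4, which encodes a factor of epithelial differentiation, fell by 1.04 on the log2 scale (SE 0.28), a call that ended without Max KO library 2 or 3 or control 2, and against controls 3 and 4 alone. These 3 were named after their values were seen. Klf5, from the same list and also named after its value was seen, did not pass (log2 0.07, SE 0.12, edgeR adjusted p = 0.721). The CDX factors are known to drive Gpa33 in the gut. Cdx1 had no count, and Cdx2 averaged 0.801 CPM in Max KO and 0.151 CPM in control libraries, under the filter. Cdx2 had 21, 8, 12 and 12 reads in Max KO libraries 1 to 4 and 0, 2, 2 and 6 reads in controls 1 to 4. Its groups did not overlap, but at these low counts it was not tested. In bulk RNA, a change in the share of cells in a state and a change within each cell cannot be told apart.

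**Figure D4:**
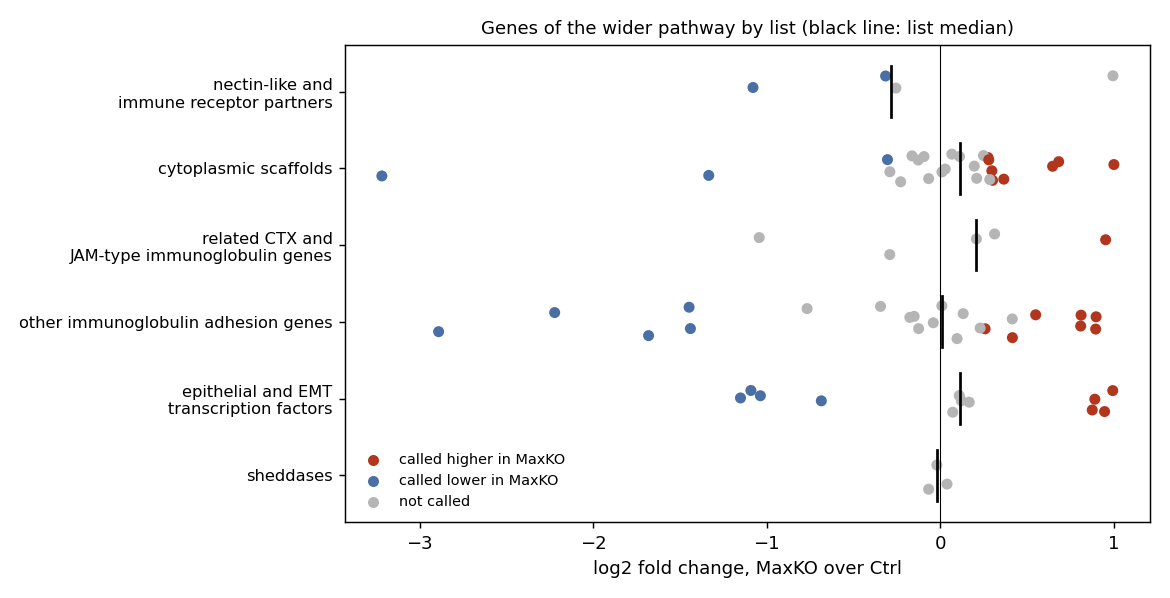
Log2 fold change, Max KO over control, of each tested gene in the 6 lists of the wider pathway, in red where called higher, blue where called lower and grey otherwise; black lines are list medians. Scaffolds, other adhesion genes and transcription factors show calls in both directions, and the medians lie between -0.28 and 0.21.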

How the data were processed

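RNA-seq was made from total RNA of 4 Max KO and 4 control preSC libraries with an NEB Ultra RNA kit, per the labels' protocols. The deposited files hold raw counts for each gene symbol. The authors made them with bcl2fastq 1.8.4, TopHat2 2.0.12 and HTSeq 0.6.1 on mm9, as listed in the submitters' processing notes, and neither which annotation was counted nor how strand was handled is stated in the sources used here. Rows for reads outside genes, which name no gene (18.5% to 23.4% of a library's reads lay outside exons), were left out of library sizes and tests.

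All 10 members matched a symbol in the files, 8 passed edgeR's filterByExpr and 13358 genes were tested. Counts were scaled by TMM and compared with edgeR 4.0.16 in R 4.3.3 (quasi-likelihood F test, robust, group as the only term, Benjamini-Hochberg adjustment, threshold 0.05). SEs were derived from the fold change and F. The members and all lists were chosen with earlier results of these data known. Named genes were the 10 members, up to 4 called genes with the smallest p in each list, Mllt4, Pard3, Tjp1 and Max, called neighbours and the closest genes by correlation; others are marked. Correlations used log2 CPM with a prior count of 2. Lengths and neighbours came from GENCODE M21 (GRCm38), and promoters from RefSeq (GRCm38.p6), matched by current symbols. No mm9 coordinates were used. The procedure was tested on simulated data.

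Other settings tried were scaling by RLE or the upper quartile, testing without the filter or with one of 1 CPM in 4 libraries, DESeq2 1.42.0, limma-voom (limma 3.58.1), no robust estimation, a replicate block, leaving out each library, and either pair of controls alone.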

Additional observations from a re-analysis of the deposited data

Results flagged for a closer look

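Among 38 genes checked in 2 groups of 4 libraries each, 5 single libraries stood far from the other 3 of their group; chance alone gives about 1 in 20 groups. Jam2 was at 1.10 CPM (15 reads) in control 3, where the next highest control had 0.241 CPM. Mpdz was at 15.7 CPM in control 3, next to 1.804 CPM, and Magi1 was at 6.59 CPM in control 3, next to 3.25 CPM. Grhl2 was at 44.7 CPM in Max KO library 3, below 50.5 CPM in the nearest library of that group, and still above all controls. Ehf was at 52.6 CPM in Max KO library 2, next to 50.2 CPM. For Jam2, Mpdz and Magi1 the library that stood apart was control 3, and the cause was not tested.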

How the results depend on the processing

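The log2 differences of the 8 tested members moved by less than the spread between libraries in all 18 alternatives, and no called member changed sign. Leaving out 1 of 4 libraries can hardly move a group mean by more than that spread. For those settings the outcome was largely fixed in advance, and nothing is read from it. Against controls 1 and 2 alone, 6068 genes were called (2987 higher and 3081 lower), and 23 pathway genes were lower in place of 14. Leaving out each library in turn gave 963 to 1846 genes called higher and 9 to 18 pathway genes lower, the low counts coming without Max KO library 2. The change of Tjp1 turned to -0.017 with upper-quartile scaling and -0.10 against controls 1 and 2 alone, and ranged from -0.095 to 0.091 when 1 library was left out; the cause was not tested. Upper-quartile scaling made 62.9% of the called genes lower, against 52.8% with TMM, and the median over the tested genes was then -0.05. For 29 other genes checked 1 by 1, 474 comparisons with an alternative kept their side of the threshold, 38 lost it, 5 gained it and 4, all of Tjp1, changed sign. Not all genes named above were checked in this way. Left out were, among others, the cell markers and the genes found by correlation apart from F11r. With the replicate block, 1208 genes were higher and 1324 lower, in place of 1457 and 1627, and the calls of Mllt4, Pard3 and Pard6a ended; same-numbered libraries had correlations of deviations from -0.20 to 0.002, so the numbers are not taken to pair them. Pvr and Jam2 had too few reads to pass the filter.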
